A study of Mus musculus with 9 samples.

Results

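The ATF4 and unfolded protein stress genes described here are 10 mouse genes: Atf4, Ddit3, Atf3, Trib3, Chac1, Asns, Phgdh, Herpud1, Xbp1 and Ddit4. Every probe set that the array platform's probe table maps to one of them was taken, which gave 24 of the 45037 probe sets tested; the genes are 10 of the 18193 that have a probe set of their own. Of the 24, 22 carry 1 gene symbol and are counted below. The other two are also mapped to the gene models Gm8096 and Gm6756 beside Phgdh and are described apart.

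ATF4 is a transcription factor at the centre of the integrated stress response. Kinases that sense misfolded protein in the endoplasmic reticulum, missing amino acids, double-stranded RNA or lack of haem phosphorylate the translation factor eIF2alpha, which slows protein synthesis in general but raises translation of Atf4 mRNA. The ATF4 protein then induces genes for amino acid supply and for further stress factors, among them Ddit3 and Trib3. The unfolded protein response has another arm that runs through IRE1 and spliced Xbp1 mRNA, and another through ATF6; both raise genes for folding and for degradation of proteins in the endoplasmic reticulum. An array measures mRNA, so neither eIF2alpha phosphorylation nor the ATF4 protein was measured here.

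RNA came from white adipocytes grown from stromal-vascular cells of inguinal fat, that is from precursors and other cells of the tissue that are not fat cells. The donors were male C57BL6 mice, 30 to 35 days old. In the PTH group 3 samples received 100 ng/ml PTH(1-34) for 4 h on day 8 of differentiation, in the PTHrP group 3 samples received 100 ng/ml PTHrP(1-34) for the same time, and 3 samples were controls, for which the sources used here name no treatment. Parathyroid hormone (PTH) and parathyroid hormone-related protein (PTHrP) act on a shared receptor that couples to cAMP, and (1-34) names their amino-terminal fragments. Cells of all 3 groups shared the induction: insulin at 5 µg/ml, rosiglitazone and dexamethasone at 1 µM each and isobutylmethylxanthine at 0.5 µM during 2 days, then insulin with rosiglitazone alone, and plain medium from day 6. The replicates are named biological in the labels, with no word on separate mice or cultures. Each p-value therefore reflects only how far these samples vary, which may be technical.

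The 9 arrays had median signals of 48.2 to 52.6. Ucp1, the uncoupling protein gene that marks thermogenic fat cells, had 1814 ± 307 with PTH, 1619 ± 141 with PTHrP and 16.7 ± 6.49 in controls (SD, n = 3 each). All 7 measured adipocyte markers were above the dim level of 29.0, the 40th percentile of all probe sets, and their summed signal was 61033 to 64065 with PTH, 59427 to 62466 with PTHrP and 60401 to 62146 in controls. Of the 7, Cidec alone passed, as higher with both peptides together (limma, 0.29 on the log2 scale of signal + 16, adjusted p = 0.0316). Of 9 macrophage markers, 4 were below the dim level (Cd163, Mrc1, Ptprc and Fcgr1), and the sum was 1128 to 1289 with PTH, 1104 to 1238 with PTHrP and 1055 to 1156 in controls. Csf1r was the largest part of that sum, with means of 603, 599 and 491 in the same order. With both peptides together, 4 of the 9 log2 fold changes were above 0 and 5 below, and none passed. The sum of 9 preadipocyte and fibroblast markers was 37253 to 37715 with PTH, 36701 to 38766 with PTHrP and 37909 to 39056 in controls, so that PTH and control arrays did not overlap; 1 of the 9, Lum, fell with PTH (-0.37 on the log2 scale of signal + 16, adjusted p = 0.0310) and with both peptides together (-0.27, adjusted p = 0.0458) and is named because of its values, and Pi16 was below the dim level. The sum of 5 smooth muscle and pericyte markers did not overlap between treated and control arrays, at 14050.5 to 14274 with PTH, 13386 to 14093 with PTHrP and 14777 to 15009 in controls. Acta2 made up most of this sum (means 12400, 12067 and 12821) and had -0.07 with both peptides together (adjusted p = 0.512). Myh11 fell with both together (-0.42, adjusted p = 0.0130) and is named because of its values. Cnn1 had -0.30, while Rgs5 and Cspg4 ran the other way, at 0.22 and 0.08, and none of them passed. The sum of 6 endothelial markers was 217 to 260 with PTH, 226 to 303 with PTHrP and 279 to 319 in controls, with Pecam1, Vwf and Cldn5 below the dim level. The sum of 5 skeletal muscle markers was 414 to 451 with PTH, 372 to 441 with PTHrP and 449 to 585 in controls, with Myod1, Myog and Myh4 below the dim level. Acta1, the largest part of that sum, fell with both peptides together (-0.40, adjusted p = 0.0207), and the other 4 did not pass. Summed, 5 proliferation markers gave 6643 to 6925 with PTH, 6335 to 6940 with PTHrP and 6901 to 7002 in controls. With both peptides together, 1 of these 5 log2 fold changes was above 0 and 4 below. In the epithelial and lymphocyte lists 1 marker each was above the dim level. No proliferation, epithelial or lymphocyte marker passed with both peptides together. Actin's control probe sets compare signal near the 3' and the 5' end of the mRNA, which bears on RNA quality; their ratio was 1.61 ± 0.03 with PTH, 1.56 ± 0.05 with PTHrP and 1.47 ± 0.03 in controls (SD, n = 3 each); the treated arrays, at 1.52 to 1.65, lay above the controls, at 1.45 to 1.51 (exact permutation p = 0.0238, two-sided, the lowest value that 84 splits can give). The same ratio for Gapdh was 0.983 with PTH, 0.960 with PTHrP and 0.965 in controls (exact permutation p = 0.619). The part of the actin ratio and of these marker sums in the results below was not tested.

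After 4 h of either peptide, Trib3, Chac1, Herpud1 and the brighter Ddit3 probe set fell by 29.4 to 44.4% and Ddit4 rose by 41.3 to 46.7%, while the differences of Atf4, Atf3, Asns, Phgdh and Xbp1 from controls were smaller. With PTH, 7 of the 22 probe sets passed an adjusted p of 0.05 as lower, where 1.37% of all probe sets did, and 1 passed as higher, where 1.34% did (limma, Benjamini-Hochberg adjustment over all probe sets). With PTHrP, 6 were lower and 1 higher, against 1.2% and 1.19% of all probe sets. With the arrays of both peptides pooled against control, 6 arrays against 3, 9 were lower and 2 higher, against 2.13% and 2% of all. Bright probe sets pass more often: among those with a mean signal of at least 100, as 20 of the 22 have, 2.94% passed as lower and 2.74% as higher with PTH, 2.57% and 2.4% with PTHrP, and 4.55% and 4.11% with both. The members were chosen with earlier results of these data known. Counts above these shares, here and below, may therefore follow in part from that choice. Log2 fold changes here and below are of signal + 16, while signals and percentages are of the values as deposited. The median log2 fold change of the 22 was -0.25 with PTH and -0.23 with PTHrP, beside a median of -0.01 and 0.00 over all probe sets. Where the fit held only the brightest probe set of each of the 18193 genes, 9 of the 10 genes passed with PTH, all but Atf3, 8 passed with PTHrP, all but Asns and Phgdh, and 10 passed with both. More genes passed in general there: 1109 of all 18193 with PTH, 1013 with PTHrP and 1529 with both. With the mean of each gene's probe sets, 6, 6 and 8 of the 10 passed, beside 815, 726 and 1109 of all 18193. The PTH and PTHrP comparisons share the 3 control arrays, so their values are given side by side and not as repeats of each other. RNA of a whole culture was measured, so fewer cells that express a gene and less of its RNA per cell cannot be told apart.

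**Figure D1:**
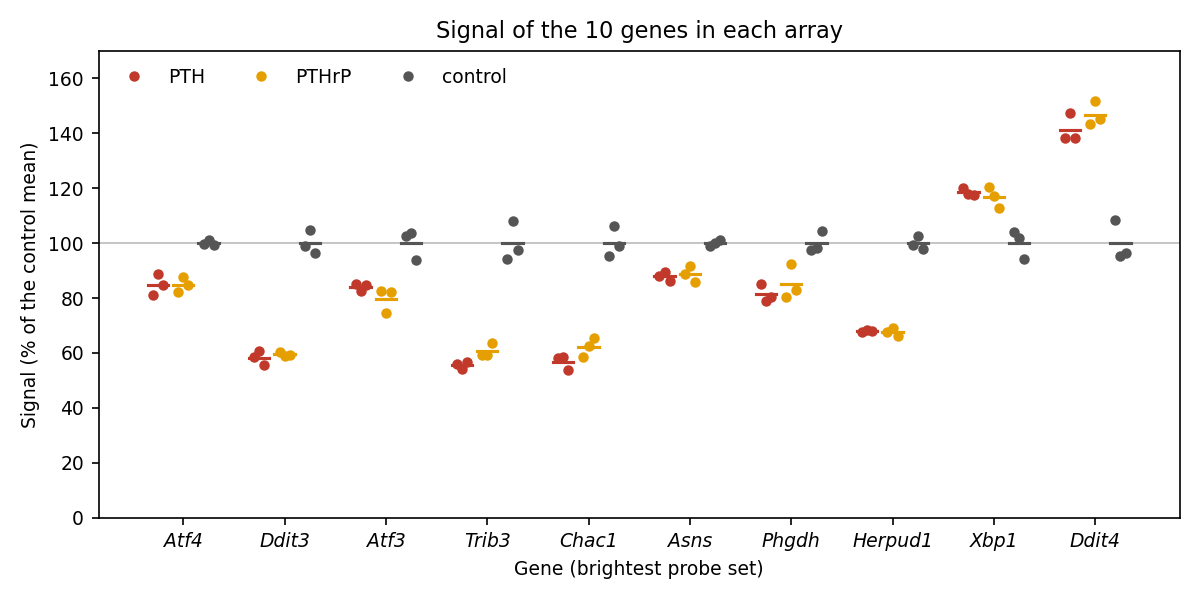
Signal of the brightest probe set of each of the 10 genes (horizontal axis) in every array, as % of that gene's mean in the controls (vertical axis); each point is 1 array of the PTH, PTHrP or control group and each bar a group mean of 3 arrays. For Ddit3, Trib3, Chac1 and Herpud1 the 6 treated arrays lie well below the 3 controls, and for Ddit4 they lie above.

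The transcription factors come first. Atf4 (Entrez gene 11911) is read by 3 probe sets. Its brightest, 1448135_at, gave 2529, 2765 and 2636 with PTH, 2558, 2725 and 2634 with PTHrP, and 3100, 3147 and 3095 in controls. All 6 treated arrays were below all 3 controls, by a modest margin. The log2 fold change was -0.24 with PTH (SE 0.06, adjusted p = 0.0738) and -0.24 with PTHrP (SE 0.06, adjusted p = 0.0791), so neither passed; with both peptides together it was -0.24 (adjusted p = 0.0349). That joint call was lost without any of 8 of the 9 arrays, PTH replicate 2 being the exception, with adjusted p from 0.0496 to 0.117 over the arrays left out. A further Atf4 probe set, 1438992_x_at, had log2 fold changes of -0.17 with PTH and -0.21 with PTHrP, and passed in no comparison (adjusted p = 0.203, 0.109 and, together, 0.0756). The remaining one, 1439258_at, read 0.80 to 7.92 in all 9 arrays, below the dim level, and gives no fold.

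Ddit3 (Entrez gene 13198) encodes CHOP, a factor that ATF4 induces and that promotes cell death under lasting stress. Its probe set 1417516_at had 767, 796 and 730 with PTH, 793, 770 and 779 with PTHrP, and 1296, 1373 and 1262 in controls. The highest treated array was far below the lowest control, and the treated arrays lay close to each other. Ddit3 fell by 41.7% with PTH (log2 fold change -0.77, SE 0.06, adjusted p = 0.000632) and fell by 40.4% with PTHrP (-0.74, SE 0.06, adjusted p = 0.000655). A dimmer probe set for the same gene, 1443897_at, averaged 146 ± 12.6 with PTH, 147 ± 13.9 with PTHrP and 178 ± 10.2 in controls (SD, n = 3 each); its log2 fold changes of -0.26 and -0.26 ran the same way but did not pass (adjusted p = 0.198 and 0.215).

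Atf3 (Entrez gene 11910), a stress-induced factor of the same bZIP class that can repress as well as activate its targets, had 1 probe set, with a mean signal of 144 over the 9 arrays. It gave 139, 135 and 139 with PTH, 135, 122 and 135 with PTHrP, and 168, 170 and 154 in controls. The groups did not overlap. The log2 fold change was -0.22 with PTH (adjusted p = 0.122) and -0.29 with PTHrP (adjusted p = 0.0540); with both together it was -0.26 (adjusted p = 0.0366), a call that was lost without any 1 of the 9 arrays (adjusted p 0.0522 to 0.131).

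Among the targets of ATF4, Trib3 and Chac1 fell together. Trib3 (Entrez gene 228775) encodes a pseudokinase that dampens ATF4 and CHOP activity and AKT signalling. Its brighter probe set, 1456225_x_at, had 664, 641 and 673 with PTH, 704, 703 and 753 with PTHrP, and 1119, 1281 and 1157 in controls. Its other probe set, 1426065_a_at, had 426, 398 and 396 with PTH, 394, 397 and 403 with PTHrP, and 695, 752 and 685 in controls. In both probe sets the treated arrays were far below every control. Trib3 fell by 44.4% with PTH (log2 fold change -0.83, SE 0.07, adjusted p = 0.000738) and fell by 39.2% with PTHrP (-0.70, SE 0.07, adjusted p = 0.00151) in 1456225_x_at. In 1426065_a_at it fell by 42.8% with PTH (-0.78, SE 0.06, adjusted p = 0.000629) and fell by 44.0% with PTHrP (-0.81, SE 0.06, adjusted p = 0.000503). PTHrP had the higher mean in the first and PTH in the second. Like the other _x_at probe sets, 1456225_x_at has probes that may also bind similar transcripts.

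Chac1 (Entrez gene 69065) encodes a gamma-glutamylcyclotransferase that breaks down glutathione. It had 488, 492 and 453 with PTH, 490, 525 and 548 with PTHrP, and 799, 890 and 829 in controls. No treated array came near the control range. Chac1 fell by 43.1% with PTH (log2 fold change -0.79, SE 0.07, adjusted p = 0.00103) and fell by 37.9% with PTHrP (-0.67, SE 0.07, adjusted p = 0.00225).

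The enzymes of amino acid supply differed less. Asns (Entrez gene 27053), asparagine synthetase, had 3501, 3552 and 3432 with PTH, 3528, 3650 and 3414 with PTHrP, and 3928, 3980 and 4020 in controls in probe set 1451095_at. The treated arrays lay below the controls, but the log2 fold changes of -0.19 with PTH and -0.17 with PTHrP did not pass (adjusted p = 0.124 and 0.165; together 0.0724). The other Asns probe set, 1433966_x_at, had -0.13 and -0.10 (adjusted p = 0.275 and 0.436).

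Phgdh (Entrez gene 236539) encodes the first enzyme of serine synthesis and was read by 4 probe sets of its own, all of the _x_at type. In 1426658_x_at the signal was 1010, 983 and 942 with PTH, 998, 1059 and 1013 with PTHrP, and 1195, 1257 and 1256 in controls, with no overlap. Here Phgdh fell by 20.8% with PTH (log2 fold change -0.33, SE 0.06, adjusted p = 0.0212), while the value with PTHrP was -0.27 (SE 0.06, adjusted p = 0.0505). The PTH call was lost without control replicate 2 or 3 or any PTH array (adjusted p 0.0561 to 0.106) and in a fit of the 2 groups alone (0.0577). The other three probe sets, 1454714_x_at, 1437621_x_at and 1456584_x_at, had log2 fold changes of -0.29, -0.30 and -0.36 with PTH and -0.23, -0.22 and -0.21 with PTHrP, and none passed (adjusted p 0.0671 to 0.139 with PTH and 0.163 to 0.418 with PTHrP). The probe sets shared with gene models ran the same way, at -0.30 with PTH and -0.28 with PTHrP for 1456471_x_at and -0.32 and -0.28 for 1426657_s_at, and did not pass with either peptide. With both peptides together, 1426658_x_at of Phgdh passed as lower (-0.30, adjusted p = 0.0126), a call lost without control replicate 2 (0.0607) or 3 (0.0584), and so did the shared 1456471_x_at (-0.29, adjusted p = 0.0255); the other four did not pass (adjusted p 0.0525 to 0.145).

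Of the genes tied to the endoplasmic reticulum, Herpud1 fell with each peptide. Herpud1 (Entrez gene 64209) encodes a membrane protein of the endoplasmic reticulum that takes part in degrading misfolded proteins. Its probe set 1448185_at had 923, 934 and 930 with PTH, 926, 947 and 904 with PTHrP, and 1359, 1405 and 1340 in controls. Probe set 1435626_a_at had 733, 734 and 698 with PTH, 706, 704 and 728 with PTHrP, and 1050, 1028 and 990 in controls. The treated arrays of both peptides fell in 1 narrow band well below the controls. In 1448185_at Herpud1 fell by 32.1% with PTH (log2 fold change -0.55, SE 0.05, adjusted p = 0.00136) and fell by 32.3% with PTHrP (-0.56, SE 0.05, adjusted p = 0.00127). In 1435626_a_at it fell by 29.4% with PTH (-0.49, adjusted p = 0.00291) and fell by 30.3% with PTHrP (-0.51, adjusted p = 0.00235).

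Xbp1 (Entrez gene 22433) encodes the factor that IRE1 activates by splicing its mRNA. The sources used here do not say whether any probe set separates the spliced form, so the values stand for the summed transcript. In 1437223_s_at the signal was 7002, 6863 and 6837 with PTH, 7011, 6825 and 6565 with PTHrP, and 6061, 5926 and 5495 in controls, so the treated arrays lay above all controls. The log2 fold change was 0.24 with PTH (SE 0.06, adjusted p = 0.0757) and 0.22 with PTHrP (SE 0.06, adjusted p = 0.110). Together it was 0.23 (adjusted p = 0.0427), which was lost without any 1 of the 9 arrays (adjusted p 0.0539 to 0.140). Probe sets 1420886_a_at and 1420011_s_at had 0.21 with each peptide and did not pass (adjusted p 0.129 to 0.175); in these too the groups did not overlap. The faintest probe set, 1420012_at, read 62.4 to 93.1 in treated arrays and 64.9 to 80.8 in controls, which overlapped.

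Ddit4 (Entrez gene 74747) was the one member that passed as higher with each peptide alone. It encodes REDD1, which inhibits the growth kinase complex mTORC1, and it is induced by ATF4, by low oxygen and by glucocorticoids. Its probe set had 2935, 3132 and 2935 with PTH, 3042, 3226 and 3084 with PTHrP, and 2306, 2022 and 2044 in controls. Every treated array was above every control. Ddit4 was 41.3% above the control mean with PTH (log2 fold change 0.50, SE 0.07, adjusted p = 0.00868) and 46.7% above it with PTHrP (0.55, SE 0.07, adjusted p = 0.00550). Across the alternatives its adjusted p reached at most 0.0490 with PTH and 0.0417 with PTHrP, so its calls were the nearest to the threshold among Ddit3 (1417516_at), Trib3, Chac1, Herpud1 and Ddit4, which passed with both peptides in every alternative tried.

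**Figure D2:**
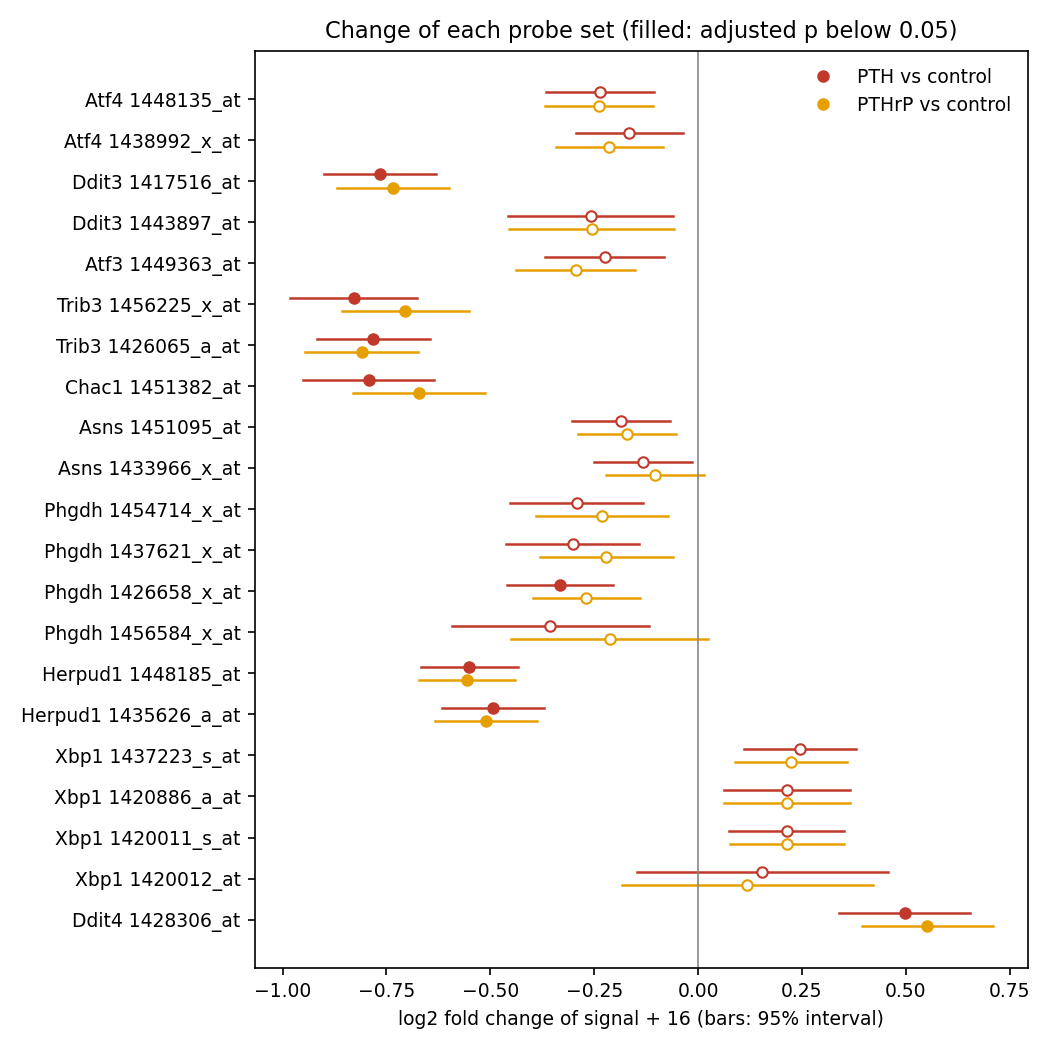
Log2 fold change of signal + 16 against control (horizontal axis) for the 21 probe sets above the dim level (rows), with PTH and PTHrP as separate points, 95% intervals as bars and filled points for an adjusted p below 0.05. The filled points are those of Ddit3, Trib3, Chac1 and Herpud1 to the left and Ddit4 to the right, with 1 Phgdh probe set filled for PTH alone.

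Counted by order alone, 16 of the 22 probe sets had all 3 PTH arrays below all 3 controls, where 11% of all probe sets did, and 4 had them all above, where 10.5% did. With PTHrP 15 were below, against 9.43% of all, and 4 above, against 8.93%. The 4 above were the 3 brighter Xbp1 probe sets and Ddit4 with each peptide. The probe sets without separation were 1439258_at of Atf4 and 1420012_at of Xbp1, and with PTHrP also 1456584_x_at of Phgdh. Probe sets of 1 gene share its RNA and are not separate evidence. These shares are of all probe sets, dim ones included. No share by order was taken among bright probe sets, to which 20 of the 22 belong.

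PTH and PTHrP were given at the same concentration for the same time, and each was its (1-34) fragment. Over the 21 member probe sets above the dim level, PTH minus PTHrP ranged from -0.14 to 0.07 on the log2 scale, and the 95% intervals of these differences lay within -0.38 and 0.34. PTH was the lower in 13 of the 21. None of the 22 passed, the lowest unadjusted p being 0.0999 for Trib3 in 1456225_x_at (adjusted p = 1), and 0% of all 45037 probe sets passed; 1911 had an unadjusted p below 0.05, and no member did. For that Trib3 probe set the difference was -0.12 (95% interval -0.28 to 0.03), and all PTH arrays lay below all PTHrP arrays, as in 4.44% of all probe sets. Chac1 differed by -0.12 (-0.28 to 0.04), Ddit3 in 1417516_at by -0.03 (-0.16 to 0.10), Herpud1 in 1448185_at by 0.01 (-0.11 to 0.12) and Ddit4 by -0.05 (-0.21 to 0.10). These intervals give the size of difference that 3 arrays a group leave possible, and a p above the threshold does not show that the peptides act alike.

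**Figure D3:**
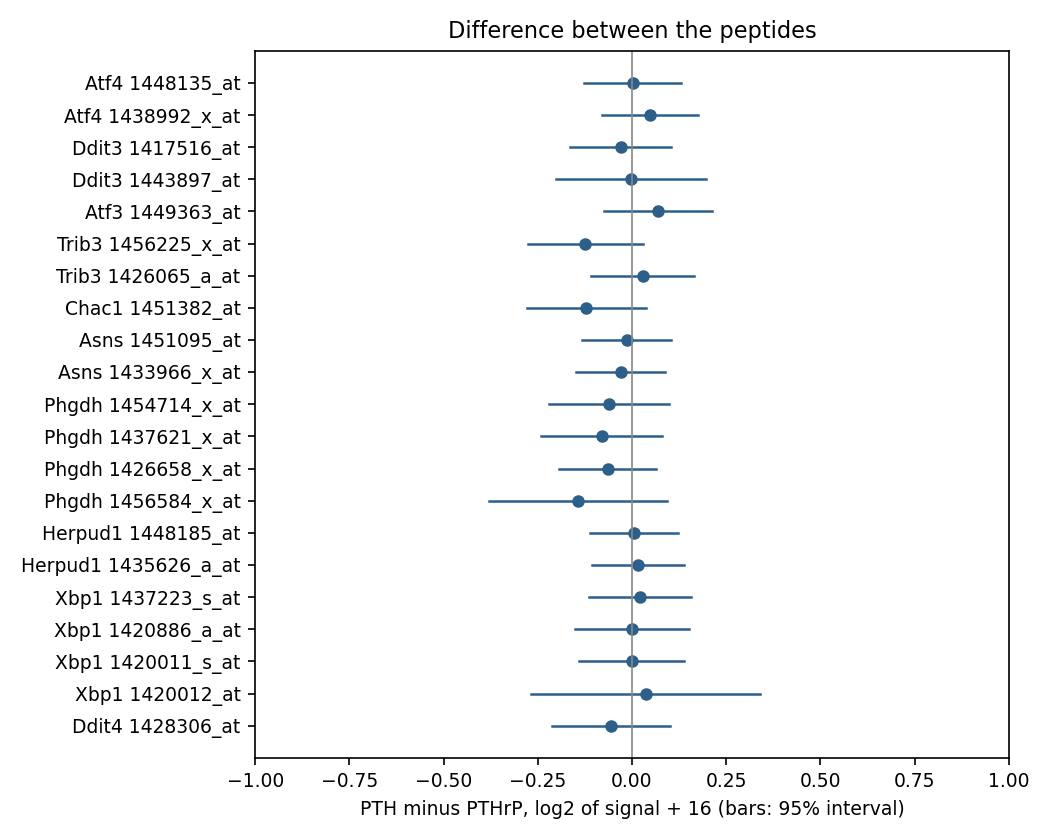
PTH minus PTHrP on the log2 scale of signal + 16 (horizontal axis) for the 21 probe sets above the dim level (rows), with points for the difference of the group means and bars for 95% intervals. All bars cross 0 and the points lie between -0.14 and 0.07.

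The stretch before the transcription start was read for the 10 genes from RefSeq (mouse build GRCm38.p6; windows from 250 bases before to 50 after the start), since 4 of the genes fell together. On either strand, 5 motifs were searched for. TGATGNAA is the C/EBP-ATF composite site to which ATF4 binds with C/EBP partners, and TGACGNAA is a variant of it. TGATGNAA occurred in 5 of the 10 windows (Atf3, Trib3, Chac1, Asns and Herpud1), beside 3.97% of all 32851 windows. TGACGNAA occurred in Atf3, Chac1 and Herpud1, beside 1.59% of all. The ER stress response element II, ATTGG and CCACG with 1 base of any kind between them, occurred in Herpud1 and in 0.0365% of all. The cAMP response element TGACGTCA and the longer ER stress response element, CCAAT and CCACG with 9 bases of any kind between them, occurred in none of the 10, beside 1.79% and 0.119% of all. No match overlapped another. A match is a run of letters, not a bound site, and a window without one says nothing of a factor's role. The 10 genes were chosen as ATF4 and unfolded protein stress genes. Matches above the shares of all windows are therefore no result about the peptides.

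The upstream stretches of Chac1 and Herpud1, which fell, and of Atf3 and Asns are shown because they hold these matches, which are in capitals; for Trib3 a short stretch just after the start holds the match. Chac1 is on the plus strand at chr2:119350992-119351241, Herpud1 on the plus strand at chr8:94386179-94386428, Atf3 on the minus strand at chr1:191183334-191183583, Asns on the minus strand at chr6:7693210-7693459 and the Trib3 stretch on the minus strand at chr2:152344028-152344057. All are written 5′ to 3′ along the gene.
Chac1: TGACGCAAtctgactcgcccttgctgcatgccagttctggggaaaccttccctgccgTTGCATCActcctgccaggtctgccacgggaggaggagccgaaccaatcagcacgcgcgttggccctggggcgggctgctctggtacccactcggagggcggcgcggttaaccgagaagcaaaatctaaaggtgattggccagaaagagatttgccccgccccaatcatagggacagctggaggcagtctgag
Herpud1: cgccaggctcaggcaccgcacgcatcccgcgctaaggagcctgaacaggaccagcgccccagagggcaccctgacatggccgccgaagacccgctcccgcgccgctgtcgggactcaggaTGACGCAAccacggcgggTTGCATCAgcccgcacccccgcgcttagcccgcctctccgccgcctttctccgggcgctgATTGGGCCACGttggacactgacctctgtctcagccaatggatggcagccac
Trib3: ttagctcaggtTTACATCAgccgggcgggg
Atf3: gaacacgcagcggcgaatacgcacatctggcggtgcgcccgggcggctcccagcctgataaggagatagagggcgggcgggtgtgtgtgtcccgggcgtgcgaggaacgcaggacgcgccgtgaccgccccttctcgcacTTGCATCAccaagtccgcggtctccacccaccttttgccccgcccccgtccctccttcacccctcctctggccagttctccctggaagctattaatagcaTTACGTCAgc
Asns: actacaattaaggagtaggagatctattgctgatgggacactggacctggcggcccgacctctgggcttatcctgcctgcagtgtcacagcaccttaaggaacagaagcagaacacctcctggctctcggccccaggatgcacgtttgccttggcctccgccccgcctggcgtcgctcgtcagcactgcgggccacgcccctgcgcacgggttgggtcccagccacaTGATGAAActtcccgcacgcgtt
In Chac1 the capitals begin with a TGACGNAA match at the first base, 250 bases before the start, followed by a TGATGNAA match on the other strand 193 bases before it. In Herpud1 they are a TGACGNAA match, a TGATGNAA match on the other strand and the ER stress response element II, which begin 130, 112 and 52 bases before the start. Trib3 and Asns each have 1 TGATGNAA match, which begins 14 bases after and 23 bases before the start. Atf3 has a TGATGNAA match 110 bases and a TGACGNAA match 10 bases before it, each on the other strand. Genes with a match include Asns and Atf3, which passed with neither peptide alone in the fit of all probe sets. Ddit3, which fell, had no match in its window.

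Further genes of the stress pathways were taken from 6 lists, each gene by its brightest probe set in the same fit, with the peptides together against control. Among all 18193 genes 3.11% passed as lower and 2.62% as higher in that comparison. These lists too were chosen with earlier results of these data known. Of 28 sensors and targets of the unfolded protein response, 2 fell and none rose, with a median log2 fold change of -0.07 (all genes 0.00). Hspa5, the chaperone BiP, had 8421 ± 122 with PTH, 8399.7 ± 86.9 with PTHrP and 8591 ± 330 in controls (SD, n = 3 each), and its log2 fold change with both peptides was -0.03 (adjusted p = 0.830). Dnajb9, a cochaperone induced through XBP1, had 0.24 (adjusted p = 0.112), and Ern1, which encodes IRE1alpha, had 0.22 (adjusted p = 0.280). The genes that fell were Derl3 (-0.25, adjusted p = 0.0209) and Edem1 (-0.23, adjusted p = 0.0251), both of the degradation pathway of the endoplasmic reticulum. No gene of the list passed as lower without any 1 control or any 1 PTH array, and 1 did without PTHrP replicate 1; without PTHrP replicate 3, 1 passed as higher. Other settings called more of the list: leaving out the dimmest 40% of probe sets, and likewise a pseudocount of 64, gave 7 lower and 1 higher, the trended robust variance gave 10 lower and 1 higher, and fitting only the brightest probe set of each gene gave 4 lower. Calls over all features rose there too, from 960 lower and 900 higher of 45037 as reported. They were 1630 and 1463 of 27022 without the dimmest 40%, and 1607 and 1410 of 45037 with a pseudocount of 64. The trended robust variance gave 1772 and 1612 of 45037, and the brightest probe set of each gene 831 and 698 of 18193. The same totals stand beside the lists below.

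Of 11 enzymes of serine, glycine and one-carbon metabolism, 2 fell and 1 rose, with a median of -0.09. Mthfd2, a mitochondrial folate enzyme and ATF4 target, averaged 734 ± 20.2 with PTH, 755 ± 52.8 with PTHrP and 1077 ± 89.3 in controls (SD, n = 3 each) and fell by 0.52 on the log2 scale (adjusted p = 0.00486). Mthfd1l, another mitochondrial folate enzyme, rose by 0.44 (adjusted p = 0.00625). Psph, the last enzyme of serine synthesis, fell by 0.24 (adjusted p = 0.0326). Psat1, the enzyme between Phgdh and Psph, had -0.13 (adjusted p = 0.278), and Shmt2, which makes glycine from serine, had 0.09 (adjusted p = 0.657). The count of lower genes was 1 in place of 2 without any 1 array other than PTHrP replicate 3. It was 3, with 2 higher, with the dimmest 40% left out, a pseudocount of 64 or the trended robust variance.

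Of 19 aminoacyl-tRNA synthetases measured, of 20 listed, Cars alone fell (-0.38, adjusted p = 0.0189) and none rose, with a median of -0.06. Aars, Gars and Wars had -0.14, -0.14 and -0.17 (adjusted p = 0.316, 0.274 and 0.200). The Cars call did not hold when PTH replicate 2 or control replicate 2 or 3 was left out, where no gene of the list passed. Leaving out the dimmest 40% of probe sets, a pseudocount of 64 or the trended robust variance gave 5 lower and 1 higher, and fitting only the brightest probe set of each gene gave 5 lower.

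Of 22 other ATF4 and stress-response genes measured, of 23 listed, 7 fell and 1 rose, with a median of -0.18. Slc6a9, a glycine transporter, averaged 141 ± 13.0 with PTH, 158 ± 12.2 with PTHrP and 249 ± 11.8 in controls (SD, n = 3 each) and fell by 0.69 on the log2 scale (adjusted p = 0.00156). Slc7a1, a transporter of cationic amino acids, fell by 0.67 (adjusted p = 0.000428), and Jdp2, a bZIP repressor, fell by 0.58 (adjusted p = 0.00100). Nupr1, a stress-induced chromatin protein, fell by 0.47 (adjusted p = 0.00110). Ppp1r15a, the GADD34 subunit that directs eIF2alpha dephosphorylation, fell by 0.30 (adjusted p = 0.0258). Sesn2, a sestrin induced by ATF4, had -0.17 (adjusted p = 0.242). The remaining calls, named because of their values, were Pck2 (-0.43, adjusted p = 0.00470) and Gadd45a (-0.45, adjusted p = 0.00791), which fell, and Cebpb (0.22, adjusted p = 0.0429), which rose. Over the fits that each left out 1 array, 6 or 7 genes passed as lower, and none passed as higher in any of them. Calls over all probe sets were 860 to 1588 there. Leaving out the dimmest 40% of probe sets, or the trended robust variance, gave 9 lower and 1 higher. Median centring gave 6 lower and none higher, beside 791 and 780 of all 45037 probe sets. The replicate block also gave 6 and none, beside 490 and 459.

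The eIF2alpha kinases, phosphatase subunits and eIF2B subunits, 14 measured of 15 listed, held 1 gene that rose and none that fell, with a median of 0.07. Eif2ak1, the haem-regulated kinase, had 0.17 (adjusted p = 0.345). Eif2ak2, the kinase that senses double-stranded RNA, averaged 449 ± 52.9 with PTH, 491 ± 98.2 with PTHrP and 718 ± 112 in controls (SD, n = 3 each), a log2 difference of -0.60 that did not pass (adjusted p = 0.0574). Eif2ak4, the kinase of amino acid shortage, had -0.30 (adjusted p = 0.115). The gene that rose was Eif2b4, a subunit of the exchange factor for eIF2 (0.21, adjusted p = 0.0468); it no longer passed without any 1 of the 9 arrays, and 1 gene of the list passed as lower without control replicate 1 or PTHrP replicate 3. The trended robust variance gave 4 higher and 2 lower.

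Of 13 inhibitors of mTORC1, the group that Ddit4 belongs to by function, 1 fell and none rose, with a median of -0.03. It was Ddit4l, a relative of Ddit4, which averaged 183 ± 4.73 with PTH, 195 ± 2.11 with PTHrP and 299.9 ± 22.5 in controls (SD, n = 3 each) and fell by 0.62 on the log2 scale (adjusted p = 0.000760), opposite to Ddit4. Sesn1 and Sesn3, which encode sestrins, had -0.03 and -0.17 (adjusted p = 0.931 and 0.140). Depdc5, a subunit of the GATOR1 complex, which restrains mTORC1 when amino acids are short, is named because of its values: it passed as higher with PTH (0.30, adjusted p = 0.0457), had 0.16 with PTHrP (adjusted p = 0.269) and did not pass with both together (0.23, adjusted p = 0.0525). With both together, 1 gene of the list passed as higher without PTHrP replicate 3, under quantile normalization, 75th percentile centring, array weights, a pseudocount of 64, the brightest probe set of each gene alone or with the dimmest 40% left out. As many as 3 genes passed as lower, with a pseudocount of 64, the trended robust variance or the mean of each gene's probe sets. Of all 45037 probe sets, 1007 passed as higher under quantile normalization, 1012 under 75th percentile centring, 851 with array weights and 769 without PTHrP replicate 3. With the mean of each gene's probe sets, 591 of all 18193 genes passed as lower.

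**Figure D4:**
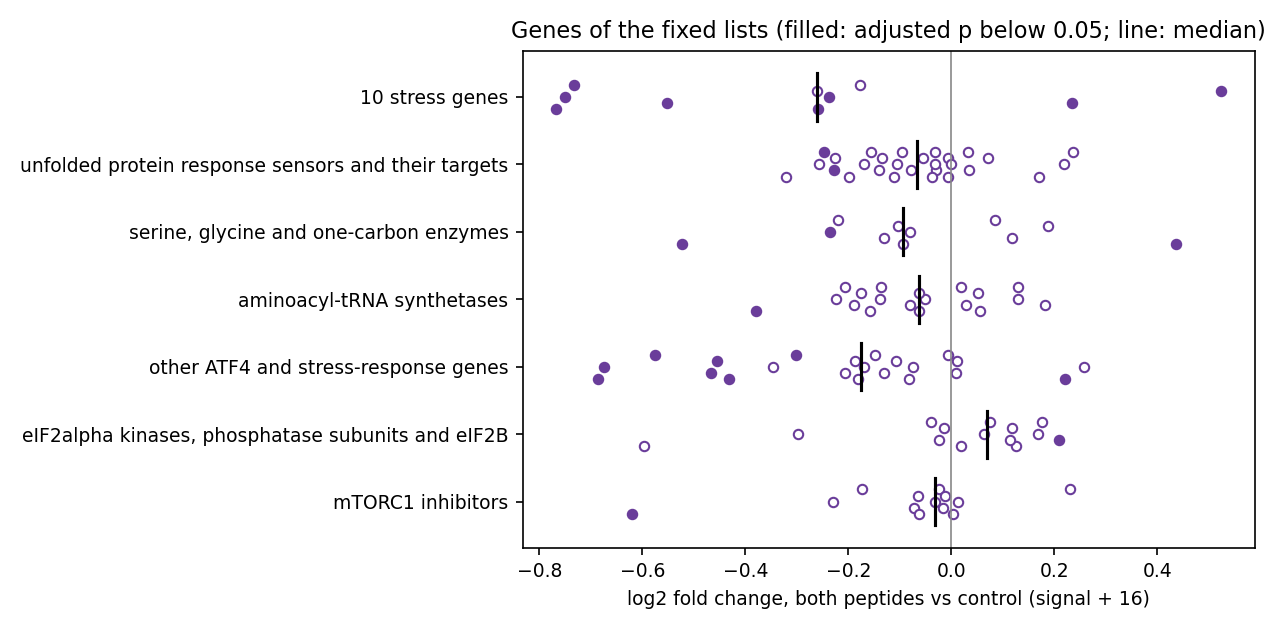
Log2 fold change of signal + 16 with both peptides against control (horizontal axis) for each gene's brightest probe set, in the 10 genes and in 6 lists (rows); points are genes, filled for an adjusted p below 0.05, and the upright line is the row's median. The medians of the 6 lists lie between -0.18 and 0.07; the filled points below -0.4 belong to the 10 genes, the one-carbon enzymes, the other ATF4 and stress-response genes and, with Ddit4l, the mTORC1 inhibitors.

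The genes whose signal across the 9 arrays was most like that of 3 members were found by Pearson's correlation of log2 signals over 9782 genes with a mean signal of at least 100. The 9 arrays form 3 groups and are the same for every gene, so r describes likeness and is given without a test. Closest to Ddit3 were Adm, the gene of the peptide adrenomedullin (r = 0.995), Mylip, a ubiquitin ligase gene (0.993), and Cask, a scaffold protein gene (0.992). Adm averaged 1737 ± 101 with PTH, 1787 ± 44.0 with PTHrP and 3315 ± 326 in controls (SD, n = 3 each). Closest to Trib3 were Heca (0.990), the kinase gene Plk2 (0.987) and the kinase gene Lrrk1 (0.987). Closest to Ddit4 were S1pr1, a receptor for sphingosine 1-phosphate (0.991), Spry3, of the Sprouty family (0.990), and Ramp3, a partner of G-protein-coupled receptors (0.987). S1pr1 averaged 366 ± 22.2 with PTH, 376 ± 11.9 with PTHrP and 143 ± 16.9 in controls (SD, n = 3 each).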

How the data were processed

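Biotin-labelled cRNA of 9 samples was hybridised to Affymetrix mouse arrays, per the labels. The values are the intensity of each probe set as deposited by the authors and how the probes were summarised, corrected and scaled is not stated there. A linear scale was inferred from the highest value per array, 17113 to 18614; if the values were not linear, the log2 changes would not be fold changes. Gene symbols came from the platform's probe table: of 45101 probe sets, 64 were array controls and left out, 34945 had 1 symbol, 932 several and 9160 none.

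From these values, log2(intensity + 16) was fitted with limma 3.58.1 in R 4.3.3, every probe set a feature, with 3 group means estimated from all 9 arrays in 1 fit. Tests were two-sided, adjusted by Benjamini-Hochberg over all 45037 probe sets, with a threshold of 0.05; the steps were tested on simulated data. Intervals are 95%. Tables and figures used Python 3.11.15, pandas 2.3.3, scipy 1.17.1 and matplotlib 3.10.9. The number of arrays limits the precision. Levels of different probe sets were not compared. All member probe sets are described; of each list, the first 3 genes and the 3 largest changes among genes that passed with both peptides together are named, and for likeness the 3 genes with the highest r. The members and lists were chosen with earlier results of these data known. Alternatives changed the normalization (quantile, or centring on the median or the 75th percentile), the filter (dimmest 40% out), the feature (brightest or mean per gene), the variance (trended robust, array weights, replicate block), the pseudocount (1 or 64) and the arrays (each left out in turn, or only the groups compared). Their effect on list counts was added after the data were seen. With no scan dates in the sources used here, no scan batch was fitted.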

Additional observations from a re-analysis of the deposited data

How the results depend on the processing

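The calls of Ddit3 (1417516_at), Trib3, Chac1, Herpud1 and Ddit4 passed with each peptide in every alternative run for them. As reported, 8 member probe sets passed with PTH, 7 with PTHrP and 11 with both together. Leaving out the dimmest 40% gave 15, 13 and 17 member calls, and 2231, 1998 and 3093 over all probe sets (1217, 1076 and 1860 as reported). The trended robust variance gave 18, 17 and 19, and 2611, 2375 and 3384 over all. A pseudocount of 64 gave 14, 14 and 17, and 2214, 1996 and 3017 over all. The mean of each gene's probe sets gave 6, 6 and 8 of the 10 genes, and 815, 726 and 1109 calls over all 18193 genes. The brightest probe set of each gene gave 9, 8 and 10 of the 10 genes, and 1109, 1013 and 1529 over all. Fits of the 2 groups alone gave 695 over all for PTH and 365 for PTHrP. Leaving out 1 array gave 7 to 8 member calls with PTH, 7 each time with PTHrP and 7 to 9 with both together, the 7 without control replicate 2 or 3, and 398 to 1090, 468 to 795 and 860 to 1588 over all probe sets. PTH against PTHrP gave no call as reported and 0 to 1 over all probe sets with 1 array left out, and 1 with a pseudocount of 1; no member passed there. No peptide-against-control value of a member above the dim level changed sign; between the peptides, 26 of 427 uncalled values did, none larger than 0.0913. The actin ratio difference of 0.114 was 0.00713 for Gapdh and 0.0992 to 0.131 with 1 array left out, where without any 1 control the exact permutation p was 0.0714.

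Same-numbered samples did not deviate together: the correlation of their deviations from the group means was -0.202 to 0.172, over 0.1 in 2 of 9 pairs, and that of samples with different numbers was -0.235 to 0.317. With the replicate number as a block, 7 member probe sets passed with PTH, 7 with PTHrP and 7 with both together, and 518, 467 and 949 of all probe sets. Under the block Phgdh 1426658_x_at did not pass with PTH (adjusted p = 0.0787) or with both together (0.0551), nor did Atf4 1448135_at (0.0834), Atf3 (0.104) and Xbp1 1437223_s_at (0.0889) with both together, and no sensor or target of the unfolded protein response passed. The cause of these movements was not tested. Signal over background limits Atf4 1439258_at, which gives no fold.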
